A study of Mus musculus with 2 samples.

Results

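Expression of 10 genes that make or receive nitric oxide, endothelin and prostacyclin, the local signals with which endothelium sets vessel tone, was described in endothelial cells of the embryonic mouse kidney. The genes are the nitric oxide synthases Nos1, Nos2 and Nos3, the endothelin genes Edn1, Ednra, Ednrb and Ece1, and the prostanoid enzymes Ptgs1, Ptgs2 and Ptgis. All probe sets that the platform annotation gives to exactly 1 of these genes were taken, which gave 16 probe sets of 8 genes, among 34945 probe sets of 18193 genes in all. No probe set of Ednra or Ptgs1 met that rule, and both genes were not analysed here. Only 1 group was measured, on 2 arrays, each with RNA of Tie2-GFP positive cells sorted from a pool of about 5 to 10 kidneys of CD-1 embryos at E15.5 (Theiler stage 23). The transgene carries GFP under the promoter of Tie2, encoded by Tek, which is active in endothelium and also in some blood cells. The titles of both samples carry the name of another receptor, Flk1, and the labelled source is the lining of the renal artery and vein, whereas whole kidneys were dissociated. No other treatment, stage or genotype was measured, so no comparison between conditions was made and no p-value is given.

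In a vessel wall, endothelial nitric oxide and prostacyclin diffuse to smooth muscle and relax it, and both hold back platelets. Endothelin-1 is cut from a larger precursor by endothelin-converting enzyme and constricts smooth muscle through the ETA receptor, encoded by Ednra. The ETB receptor, encoded by Ednrb, sits on endothelium itself, where it clears endothelin and triggers release of nitric oxide and prostacyclin.

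Values are intensities in arbitrary units, 1 per probe set. An intensity depends on the probes as well as on the transcript, so levels of different probe sets were not set against each other. A probe set was taken as above background when it exceeded, on both arrays, the 95th percentile of 83 probe sets for receptors of smell and taste, a limit of 202.5 for replicate 1 and 204.1 for replicate 2. Of the 16 probe sets 9 were above background on both arrays, 1 on replicate 2 only and 6 on neither, and 6 of the 8 measured genes had at least 1 probe set above it. Over all probe sets with 1 gene the share above background was 55.0%, and over all genes the share with at least 1 such probe set was 61.0%, so the count of probe sets lay close to that of the whole array. The genes with a probe set above background were Nos1, Nos3, Edn1, Ednrb, Ece1 and Ptgis. Nos2 and Ptgs2 had none.

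**Figure D1:**
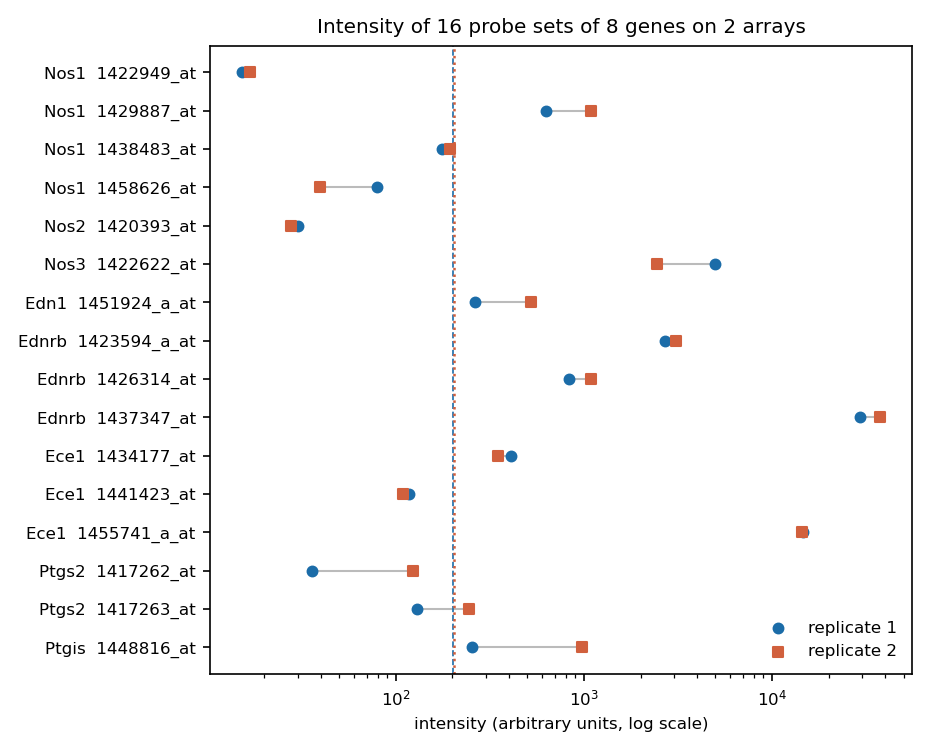
Intensity (x axis, arbitrary units, log scale) of each of the 16 probe sets (rows) in replicate 1 (circles) and replicate 2 (squares), with the background limits of 202.5 and 204.1 as dashed and dotted lines. The 3 Ednrb probe sets lie right of the limits on both arrays, while Nos2 lies left of them.

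Of the nitric oxide synthases, the endothelial enzyme Nos3 was clearly above background and the inducible enzyme Nos2 was not. Nos3 gave 4952 in replicate 1 and 2456 in replicate 2, with its 1 probe set. It was above the limit in both pools and higher in replicate 1. Nos2, known from activated macrophages and cytokine-treated cells, gave 30.3 and 27.6, and both arrays were far under the limit. Nos1, the neuronal enzyme, which in adult kidney is known from the macula densa, was measured by 4 probe sets that disagreed. Probe set 1429887_at gave 624.7 and 1085, above the limit on both arrays, whereas 1438483_at gave 176.3 and 193.5, just under it. The other Nos1 probe sets, 1458626_at (79.4 and 39.6) and 1422949_at (15.3 and 16.7), were under the limit as well. With 3 of its 4 probe sets under the limit, the call for Nos1 rests on 1 of them, and which transcripts each probe set matches was not tested. Of 6 measured neuron and neural crest genes 1 was above background, Stmn2 (350.0 and 448.6), against 61.0% of all genes, and Sox10 (173.5 and 212.8) and Elavl4 (195.7 and 248.6) exceeded the limit in replicate 2 alone. Of 7 tubule genes 0 were above background on both arrays, Wnt4 (216.8 and 137.8) exceeded the limit in replicate 1 alone, and Umod gave 53.2 and 118.3.

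Of 24 other nitric oxide pathway genes 18 were above background, 3 exceeded the limit on 1 array and 3 on neither. By the same rule, in which a gene stands by the brightest of its probe sets on average, 61.0% of all genes were above background. A gene above background by this rule may have other probe sets under the limit. Each gene that makes or recycles tetrahydrobiopterin, the cofactor that nitric oxide synthases need, was above background. Gch1, its first enzyme, gave 821.3 and 432.4, and Gchfr, which regulates Gch1, gave 5045 and 3687. Pts (1321 and 1559), Spr (404.4 and 380.2) and Qdpr (45537 and 34312) complete that route, and the Qdpr value comes from a probe set marked as open to cross-hybridization, beside a second at 6643 and 4124. For arginine, the substrate, the transporter Slc7a1 gave 15787 and 25547. Asl, which makes arginine, gave 1235 and 1067, whereas Ass1, the enzyme before it, was under the limit (138.6 and 113.2). The arginases, which use up arginine, were not above background on both arrays. Arg2 gave 65.7 and 51.2, and Arg1 gave 121.2 and 588.9, passing the limit in replicate 2 only.

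Of 6 listed genes whose proteins bind the synthases, 5 were above background, against 61.0% of all genes. Cav1, the caveolar protein that holds Nos3 inactive, gave 31392 and 38646. Nosip gave 2441 and 1719 and Nostrin, which moves Nos3 off the membrane, gave 299.5 and 411.0. Dynll1, which binds Nos1, gave 52514 and 46661, and Hsp90aa1, a chaperone of Nos3, gave 46072 and 48134. Nos1ap, an adaptor of Nos1, exceeded the limit in replicate 1 alone (332.6 and 159.7), and its other probe set gave 150.4 and 127.5. Ddah1 (2504 and 4009) and Ddah2 (3310 and 3646), which break down methylarginine inhibitors of the synthases, were also above background. Downstream, the guanylate cyclase subunits that sense nitric oxide were above background for Gucy1a1 (369.4 and 611.3) and Gucy1b1 (333.6 and 1176), and Gucy1a2 sat at the limit (203.1 and 200.3). The cGMP-dependent kinase Prkg1 gave 1002 and 921.5, its relative Prkg2 was under the limit (182.8 and 168.2), and Pde5a, which degrades cGMP, gave 449.0 and 705.3. By the brightest probe set of each of the 18 genes above background, Gucy1b1 alone differed by over 2-fold between the arrays, and its other probe set gave 200.4 and 230.8. A dimmer Pde5a probe set, 242.0 and 654.1, also differed by over 2-fold (2.68-fold).

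Within the endothelin system the receptor and 1 probe set of the converting enzyme were well above the limit, and the ligand was close to it in replicate 1. Ednrb gave 29304 and 37517 with probe set 1437347_at, 2690 and 3078 with 1423594_a_at, and 828.5 and 1095 with 1426314_at. All 3 probe sets were above background on both arrays and slightly higher in replicate 2, by 1.13-fold to 1.31-fold. Ece1 gave 14678 and 14409 with 1455741_a_at, a probe set that matches several transcripts of the gene, and 410.5 and 347.4 with 1434177_at. Probe set 1434177_at was no longer above background at 2 times the limit. Another Ece1 probe set, 1441423_at, was under the limit (117.6 and 109.7). The Ece1 arrays were the closest pair of the 9 probe sets above background, at 1.03-fold for 1455741_a_at. Edn1 gave 264.9 and 525.4, above the limit in both pools but by a small margin in replicate 1, and was no longer above background at 2 times the limit or at the 99th percentile of the receptor probe sets (310.2 for replicate 1).

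Promoters of the ligand, its receptor and its converting enzyme are printed because these 3 genes form 1 route and were all above background. The windows come from RefSeq on GRCm38.p6 and run from 250 bases before an annotated start to 50 bases after it, 5′ to 3′ on the gene's strand. Windows were found for 7 of the 10 genes, 10 in all, and none was given for Nos2, Nos3 and Ptgis. Ece1 has 4 annotated starts, of which 2 are shown, since another overlaps the first and the last one held no match. Capitals mark matches, on either strand, to the GATA factor motif AGATAA, the AP-1 motif TGACTNA, the hypoxia-inducible factor core ACGTG, the cAMP response half-site TGACG, the ETS core GGAAG, the TATA box TATAAA and the CCAAT box, all chosen after the windows had been read.
Edn1, chr13:42301226-42301525, + strand: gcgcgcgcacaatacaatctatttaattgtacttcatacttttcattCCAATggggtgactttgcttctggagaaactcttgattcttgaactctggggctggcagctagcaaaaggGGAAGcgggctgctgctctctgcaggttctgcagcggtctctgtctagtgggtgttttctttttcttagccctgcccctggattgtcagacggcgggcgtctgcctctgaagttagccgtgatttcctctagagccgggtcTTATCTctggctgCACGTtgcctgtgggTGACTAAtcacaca
Ednrb, chr14:103843652-103843951, - strand: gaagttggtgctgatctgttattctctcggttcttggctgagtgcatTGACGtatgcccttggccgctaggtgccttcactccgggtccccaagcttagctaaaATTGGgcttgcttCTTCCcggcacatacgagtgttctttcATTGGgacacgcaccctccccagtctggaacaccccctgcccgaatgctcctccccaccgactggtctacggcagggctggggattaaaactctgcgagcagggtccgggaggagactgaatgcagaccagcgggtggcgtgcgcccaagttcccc
Ece1, first start, chr4:137861987-137862286, + strand: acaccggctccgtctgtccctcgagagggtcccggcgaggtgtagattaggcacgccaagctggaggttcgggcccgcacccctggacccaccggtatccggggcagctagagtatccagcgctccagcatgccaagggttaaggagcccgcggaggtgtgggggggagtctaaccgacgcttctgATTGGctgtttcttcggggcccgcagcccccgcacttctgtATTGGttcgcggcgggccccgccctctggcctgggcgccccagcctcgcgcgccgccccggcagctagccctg
Ece1, later start, chr4:137913308-137913607, + strand: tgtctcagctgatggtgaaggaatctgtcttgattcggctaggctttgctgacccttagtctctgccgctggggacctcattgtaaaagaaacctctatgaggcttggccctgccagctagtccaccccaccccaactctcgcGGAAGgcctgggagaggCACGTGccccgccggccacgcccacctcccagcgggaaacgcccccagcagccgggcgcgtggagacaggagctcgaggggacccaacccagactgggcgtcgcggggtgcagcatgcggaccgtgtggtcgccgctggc

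The Edn1 window held 5 of these motifs, counted from 1 at its 5′ end. A GATA match began at base 259, an ACGTG match at 272 and an AP-1 match at 287. These lie within the last 50 bases, after the annotated start. A CCAAT match began at 48 and an ETS core at 118. Edn1 alone among the matched genes held the GATA and AP-1 letters, which were found in 11.2% and 13.9% of all 32851 windows. Ednrb held the half-site TGACG at base 48, CCAAT at 105 and 145 and an ETS core at 118. The first Ece1 window held CCAAT at 187 and 228, and the later one held ACGTG at 161 and 162, which overlap, and an ETS core at 144. Over the 10 windows ACGTG was found in 3, against 19.6% of all windows, TGACG in 3, against 20.8%, GGAAG in 7, against 71.4%, CCAAT in 4, against 37.4%, and TATAAA in 0, against 13.6%. A match is a string of letters and not a bound site.

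Of 14 other endothelin pathway genes 10 were above background and 4 were under the limit on both arrays, against 61.0% of all genes. The other ligands gave little signal. Edn2 was under the limit (109.7 and 107.8) and Edn3 gave 238.1 and 294.8, with 1 of its 4 probe sets above background. Ece2, a second converting enzyme, gave 3958 and 2806, and its other probe set gave 9.94 and 9.70. The related peptidases Ecel1 (150.6 and 199.7), Kel (154.0 and 161.8) and Mmel1 (171.3 and 183.9) were under the limit. Mme (neprilysin), which degrades endothelin, gave 205.2 and 604.8 and was above background by a narrow margin in replicate 1. The 7 G protein and phospholipase genes through which endothelin receptors signal in many cells were all above background, namely Gnaq (6160 and 5525), Gna11 (8480 and 6904), Gna12 (6009 and 5211), Gna13 (10423 and 14919), Plcb1 (1826 and 3083), Plcb3 (1237 and 1634) and Plcb4 (12841 and 7935). Gna12, Plcb1 and Plcb4 each had 2 of 5 probe sets above background. With a gene represented by the median of its probe sets, the count for the pathway was 5 of 14. The share of all genes by that rule was not computed.

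For prostacyclin, the terminal synthase was above background and the inducible cyclooxygenase that feeds it was not. Ptgis, prostacyclin synthase, gave 254.6 in replicate 1 and 977.5 in replicate 2. Both pools were above the limit, replicate 1 by a small margin, and Ptgis was no longer above background at 2 times the limit or at the 99th percentile. Ptgs2, cyclooxygenase-2, which in kidney is known from the macula densa and the medullary interstitium, gave 129.7 and 244.3 with probe set 1417263_at and 35.9 and 124.1 with 1417262_at. Only replicate 2 exceeded the limit with 1417263_at, and neither array did with 1417262_at. At the alternative limit of 100, 1417263_at was above background on both arrays and 1417262_at was not. The Ptgs2 promoter is shown beside that of Edn1.
Ptgs2, chr1:150099781-150100080, + strand: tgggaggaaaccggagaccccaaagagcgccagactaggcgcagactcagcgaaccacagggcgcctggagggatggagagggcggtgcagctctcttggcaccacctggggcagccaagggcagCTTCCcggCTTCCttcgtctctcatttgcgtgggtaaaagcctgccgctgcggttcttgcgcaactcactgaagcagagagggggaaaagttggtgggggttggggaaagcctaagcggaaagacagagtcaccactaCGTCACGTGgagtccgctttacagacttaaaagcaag

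Both genes are known for rapid induction in stimulated cells. After the annotated start, the Ptgs2 window held TGACG on the reverse strand at base 264 and ACGTG at 267 and 268. These 3 matches overlap. The Ptgs2 window also held ETS cores at 126 and 134, and no AGATAA or TGACTNA match. Those letters were found in 11.2% and 13.9% of all windows, so most windows lack them. They were chosen after the windows had been read, so the difference from Edn1 was not tested.

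Of the other prostanoid genes 10 of 17 measured were above background, 4 passed the limit on 1 array and 3 on neither, against 61.0% of all genes. Pla2g4a, the phospholipase that frees arachidonic acid, gave 684.8 and 1395. Synthases for other prostanoids were Ptges (272.3 and 262.8) and Ptges2 (904.0 and 834.4) for prostaglandin E2, Hpgds (326.0 and 377.5) for prostaglandin D2 and Tbxas1 (775.4 and 898.6) for thromboxane, all above background. Ptgds, another prostaglandin D2 synthase, exceeded the limit on replicate 1 alone (203.6 and 106.4). Of 3 Ptges probe sets only 1 was above background, and its value in replicate 1 lies under the 99th percentile limit of 310.2. Ptges3 had no probe set with 1 gene. Macrophages are known for Hpgds and Tbxas1, and all 9 macrophage markers were above background, with Csf1r at 34030 and 36806 and a summed level of 82682 and 101474. Of 6 platelet markers 4 were above background, close to the 61.0% of all genes, with Pf4 at 13136 and 13626 and Gp9 at 19.6 and 86.8. Their part in the prostanoid values was not tested. Removal of prostaglandins was represented by the uptake carrier Slco2a1 (2460 and 2041) and the degrading enzyme Hpgd (2314 and 2222). The Hpgd value comes from a probe set marked as shared by several transcripts, and the other probe set of the gene was under the limit (56.8 and 84.1).

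Among prostanoid receptors, Tbxa2r, Ptger4 and Ptger2 were above background and the prostacyclin receptor was not. Ptgir, the prostacyclin receptor, was under the limit on both arrays (149.0 and 129.2). Both Ptgir values exceed the alternative limit of 100, so that call depends on the limit. Tbxa2r, the thromboxane receptor, gave 2389 and 1190. Of the prostaglandin E2 receptors, Ptger4 gave 670.2 and 2337 and Ptger2 gave 263.3 and 477.1, Ptger3 passed the limit in replicate 2 only (116.8 and 733.1) and Ptger1 on neither array (14.4 and 12.4). Ptgfr passed it in replicate 2 only (128.9 and 297.5), Ptgdr in replicate 1 only (206.0 and 152.7), and Ptgdr2 on neither (11.8 and 23.4). The other Ptger4 probe set was under the limit on both arrays (76.0 and 109). The Ptger2 value in replicate 1 lies under the 99th percentile limit of 310.2.

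**Figure D2:**
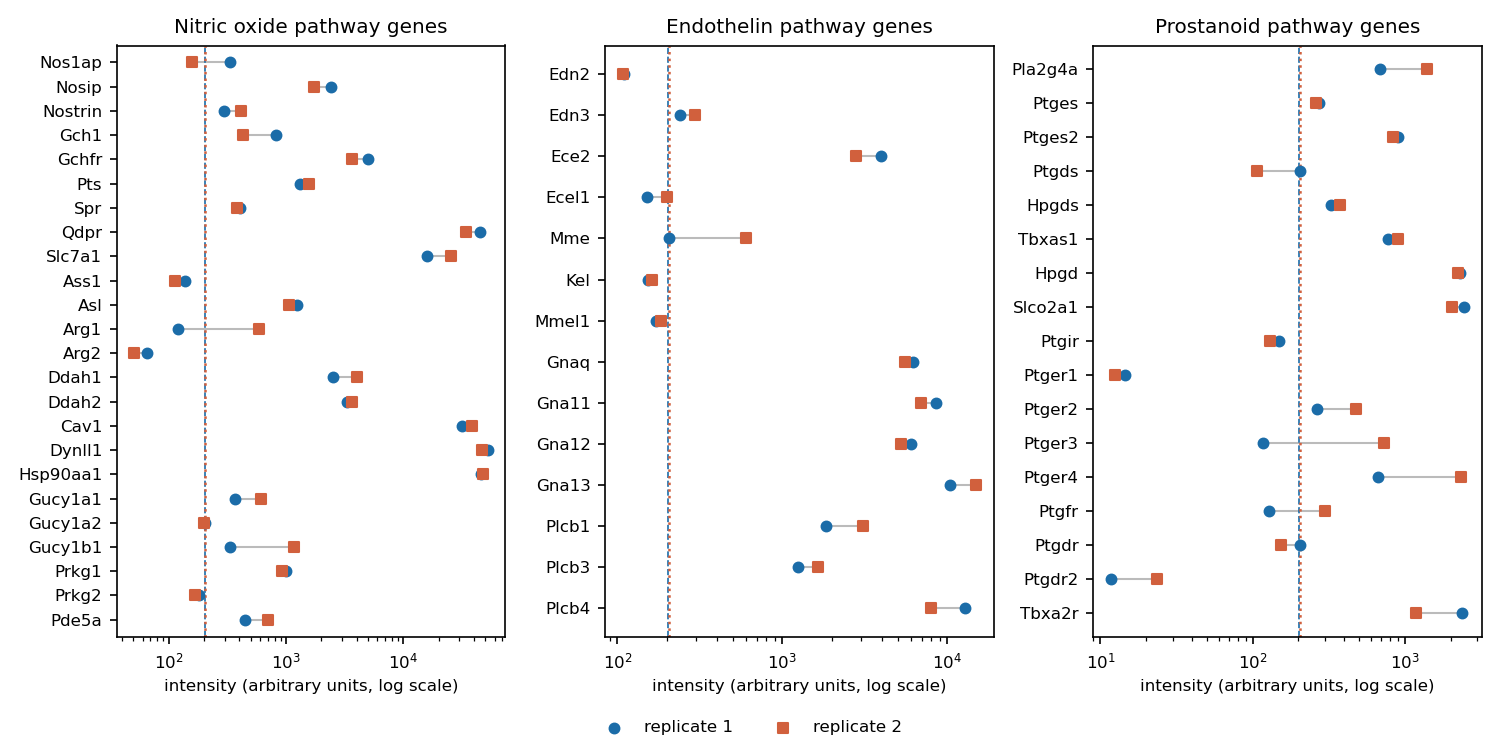
Intensity (x axes, arbitrary units, log scale) of the other genes of the nitric oxide, endothelin and prostanoid pathways (rows) in replicate 1 (circles) and replicate 2 (squares), each gene by its brightest probe set on average, with the background limits as dashed and dotted lines. Above background on both arrays were 18 of 24, 10 of 14 and 10 of 17 genes.

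The pools were then set against each other for these genes. Differences are log2 of replicate 1 minus replicate 2, after removal of the median over all probe sets above background, which was -0.01. Of the 9 probe sets above background 2 differed by over 2-fold, 1 in each direction. Over all 19204 probe sets above background with 1 gene, 4.96% did so, 2.07% higher in replicate 1 and 2.89% higher in replicate 2. Among all genes above background, taken by the brightest probe set of each, 4.80% did. Ptgis was 3.81-fold higher in replicate 2 (log2 difference -1.93). Nos3 was 2.03-fold higher in replicate 1 (log2 difference 1.02), which is close to the 2-fold line. The remaining 7 probe sets ran from -0.98 for Edn1 to 0.25 for Ece1, with Nos1 at -0.78. The median over the 9 was -0.34, with 3 higher in replicate 1 and 6 in replicate 2, against a median of 0.01 over all probe sets above background. The SD of the difference among probe sets above background was 0.55 at mean intensities under 1000, where Ptgis, Edn1 and Nos1 lie, 0.49 between 1000 and 10000, where Nos3 lies, and 0.35 over 10000. With 2 arrays no difference has a replicate check, and the labels do not say whether the pools came from separate litters, so the spread may be technical.

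**Figure D3:**
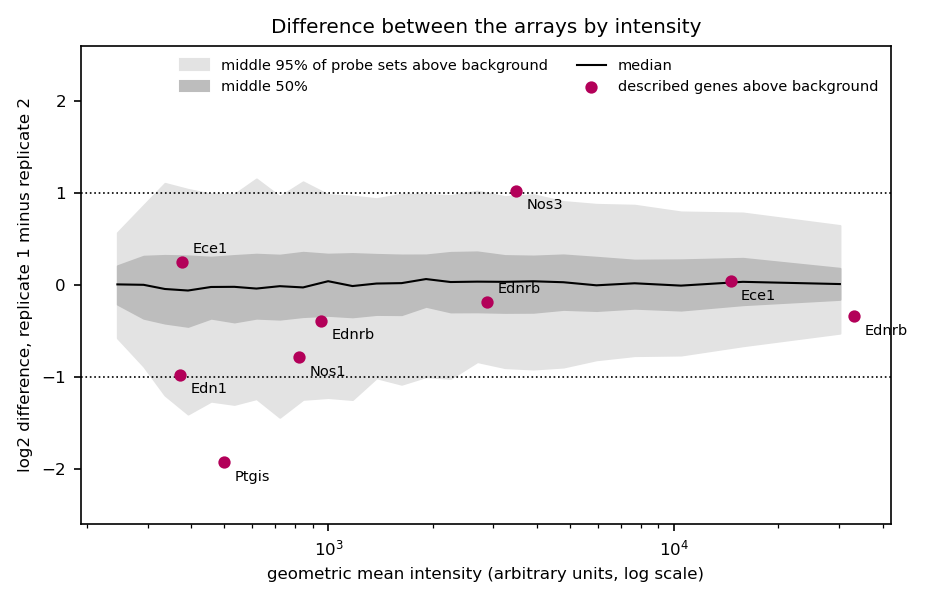
Log2 difference, replicate 1 minus replicate 2 (y axis), against geometric mean intensity (x axis, arbitrary units, log scale), for the 9 probe sets above background (points) over the middle 95% and 50% of all probe sets above background (light and dark grey) and their median (line), with 2-fold differences dotted. Ptgis at -1.93 lies below the light band.

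Cell type markers differed between the pools as well. Renal stroma genes had a median difference of -1.88 over the 9 of 10 above background, all 9 higher in replicate 2, and a summed level of 23483 in replicate 1 and 76028 in replicate 2. Among them Foxd1 gave 775.4 and 1775, Pdgfra gave 719.8 and 4811 and Tbx18 gave 282.0 and 1115. Bright probe sets weigh most in the sums, and Col3a1 alone gave 14533 and 43894. Of 10 mural and smooth muscle genes 6 were above background, against 61.0% of all genes. Their median was -0.55, with Pdgfrb at 2246 and 4253, and the sums of the list were 14174 and 18374. Tagln (98.8 and 334.4) and Myh11 (32.4 and 278) exceeded the limit in replicate 2 alone and are not in that median. Cnn1 (7.17 and 3.83) and Des (77.5 and 106.4) were under the limit. All 12 endothelial markers were above background, with a median of 0.15, 9 higher in replicate 1 and sums of 156811 and 142250. Ptgis differed in the direction and by about the size of the stroma genes. Nos3 (1.02) was higher in replicate 1, as were 9 of 12 endothelial markers, but the largest difference among those markers was 0.74. The other 3 were higher in replicate 2, down to -0.83. In a sorted pool, fewer cells of a type and less RNA per cell cannot be told apart, and the part of these cell types in the Ptgis and Nos3 differences was not tested.

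By brightest probe sets, some other pathway genes above background also differed by over 2-fold. Of 18 nitric oxide genes 1 did, Gucy1b1 (3.49-fold higher in replicate 2), and of 10 endothelin genes 1, Mme (2.92-fold higher in replicate 2). Of 10 prostanoid genes, Ptger4 (3.46-fold) and Pla2g4a (2.02-fold) were higher in replicate 2, and Tbxa2r was 2.03-fold higher in replicate 1. Among all genes above background 4.80% differed by over 2-fold. Over all probe sets above background, 2.89% were over 2-fold higher in replicate 2 and 2.07% in replicate 1. List medians were small, at -0.09 for nitric oxide, -0.06 for endothelin and -0.07 for prostanoid genes.

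**Figure D4:**
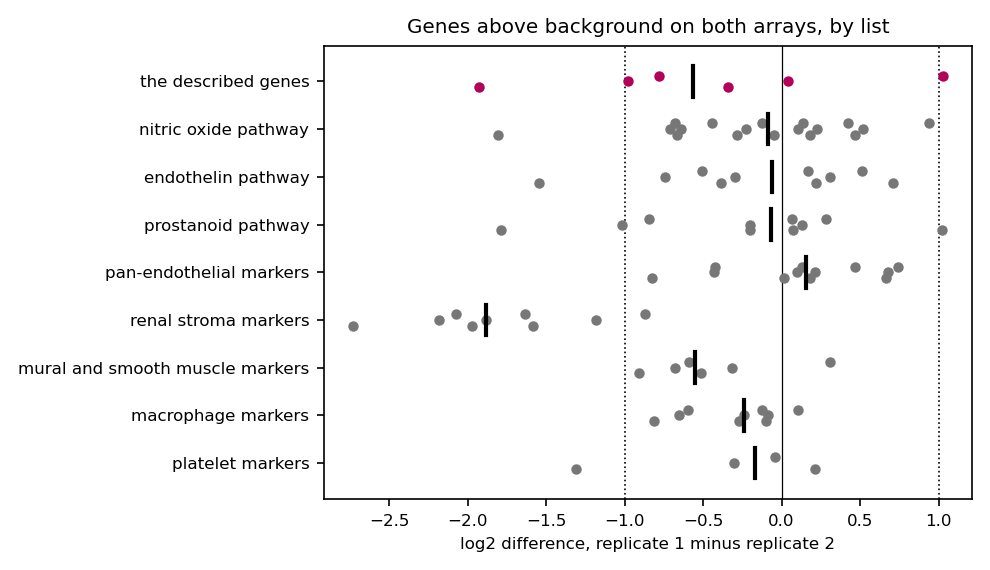
Log2 difference, replicate 1 minus replicate 2 (x axis), of each gene above background on both arrays (points) by gene list (rows), with the median of each list (black marks) and 2-fold differences dotted. The renal stroma median of -1.88 lies apart from the other medians shown, and Ptgis at -1.93 is the leftmost of the described genes.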

How the data were processed

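Data of 1 group, on 2 arrays, were analysed. The authors deposited 1 intensity per probe set of an Affymetrix mouse genome array of the 3' expression type, not log-transformed. GCOS, without a version, is named in the submitters' processing notes. RNA had been amplified in 2 rounds, which favours probes near the 3' end, and the ratio of 3' to 5' signal for Actb was 3.15 and 3.67, and for Gapdh 19.5 and 22.3. Means without the lowest and highest 2% of values were 1500.0 on both arrays, so the arrays had been scaled alike before deposit. No source used here gives the genome build behind the probe annotation. Methods stated in the study concern a different array type and amplification, so they were not applied here, except that their minimum level of 100 served as an alternative limit.

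Of 45101 probe sets, 34945 have 1 gene in the platform annotation, 932 several, 9160 none listed here, and 64 are controls. All 8 measured genes keep their symbols in a current gene table. Mixed calls, with probe sets on both sides of the limit, were found for 44.3% of the 9010 genes that have more than 1. Values of the text follow every probe set of the 10 genes, every measured gene of 3 pathway lists, and the first markers of each cell type list, with further markers chosen after their values were seen. The genes and lists were chosen with earlier results of these data known. A single group allows neither a contrast nor a test. Limits, calls and differences were computed with Python 3.11.15, numpy 2.4.6 and pandas 2.3.3 and tested on simulated data. Alternatives were other limits (100, 2 times the limit and the 99th percentile), quantile normalization, no centring, a pseudocount of 100, probe sets without a suffix, the median over each gene's probe sets and each array alone. Array number limits the precision.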

Additional observations from a re-analysis of the deposited data

How the results depend on the processing

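Counts of probe sets and genes above background stayed within 1.5 times the reported ones under each alternative, except where stated. Of the 16 probe sets, 12 were above a limit of 100, 7 above the 99th percentile, 6 above 2 times the limit and 9 after quantile normalization. Of the 8 measured genes, reported as 6, 7 had a probe set above a limit of 100, with Ptgs2 added. The gene count was 4 at the 99th percentile and 4 at 2 times the limit, Edn1 and Ptgis being lost at both. After quantile normalization it was 6. On 1 array alone the probe sets above background were 9 to 10, and genes 6 to 7, Ptgs2 being added without replicate 1. The count over 2-fold, reported as 2, was 1 at 2 times the limit and 1 at the 99th percentile, where Ptgis is no longer above background, and 1 after quantile normalization and 1 with a pseudocount of 100, where Nos3 is under 2-fold. The endothelin pathway count was 5 by the median over each gene's probe sets. No direction of Nos3 or Ptgis reversed. No paired analysis was possible because there is 1 group. Levels near the limit, those of Edn1 and Ptgis in replicate 1, are the least certain.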

Other observations

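Markers of other kidney cells were measured as well. Over all genes 61.0% were above background by the brightest probe set, more than in any list below. Presence of these cell types was not tested. Of 5 nephron progenitor genes 2 were above background, Six2 (269.5 and 229.5) and Meox1 (939.9 and 1018), and Cited1 gave 11.7 and 13.6. Six2 was under the 99th percentile limits (310.2 and 231.8). Of 6 ureteric bud genes 3 were above background, Wnt11 (373.9 and 563.7), Gata3 (378.2 and 416.2) and Krt8 (426.3 and 418.0). Of 3 measured podocyte genes 1 was, Synpo (1012 and 2346), and Nphs1 gave 89.1 and 100.2.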
